A study of Mus musculus with 8 samples.

Results

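The 9 genes Hook1, Meig1, Rimbp3, Ift20, Ift74, Ift88, Spag6, Spag16 and Spag17, which build or use the transport routes of the elongating sperm cell, were followed in whole testes of mice aged 27 days. Every probe set annotated with 1 of these symbols was taken, which gave 14 of the 45101 probe sets of the Affymetrix array, and 9 of the 18193 gene symbols on it. The testes came from 4 mice labelled mutant, with the genotype Brwd1-/-, and 4 mice labelled wild type, each with 1 array. The genotype entry of the wild-type mice reads Brwd1+/-, so they may carry 1 mutant copy. Brwd1 encodes a bromodomain and WD repeat protein. The labels do not say how the allele was made or in which strain, and they name no treatment for either group. The series' design text states that at this age germ cells have passed meiosis and are partway through spermatid development, so the comparison asks which transcripts differ then.

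While a spermatid lengthens, a skirt of microtubules called the manchette surrounds the nucleus, helps shape the head and carries cargo towards the growing tail. Intraflagellar transport moves cargo along the microtubules of cilia and flagella on protein trains, of which complex B is needed for the outward run. The central apparatus is the pair of single microtubules, with their attached proteins, in the middle of the axoneme, and it takes part in controlling the beat. Hook1 encodes a microtubule-binding linker of the manchette, and Rimbp3 a manchette protein that binds it. Meig1 is needed to bring cargo, SPAG16 among it, to the manchette. SPAG6, SPAG16 and SPAG17 are central apparatus proteins, and IFT20, IFT74 and IFT88 belong to complex B.

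The stretch around the start of a transcript, 250 bases before it to 50 after it, was held in RefSeq windows of build GRCm38.p6 for 8 of the 9 genes, all but Rimbp3. Such stretches are shown for 4 genes, with the letters of motifs tied to ciliary and spermatid transcription in capitals: 1 central apparatus gene with a full match, the paralogues Spag6 and Spag6l, whose probe sets read differently, and Ift20, the gene of the 9 whose adjusted p was lowest. Motifs were the X-box bound by RFX factors (GTNNCC and, after any 3 bases, GNAAC), its part GTTGCC, the cAMP response element TGACGTCA and its part TGACGT, each on both strands and with the parts lying inside the full motifs. Sequences run 5′ to 3′ along the gene.
Spag16, chr1:69826720-69827019, plus strand: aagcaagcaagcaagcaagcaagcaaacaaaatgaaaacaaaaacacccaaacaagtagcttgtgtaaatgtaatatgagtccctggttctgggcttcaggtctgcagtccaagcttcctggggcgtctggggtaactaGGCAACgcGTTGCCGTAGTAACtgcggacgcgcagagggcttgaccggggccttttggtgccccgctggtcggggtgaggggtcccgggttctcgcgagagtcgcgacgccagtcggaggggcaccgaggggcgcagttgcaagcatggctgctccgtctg
Spag6, chr2:18698772-18699071, plus strand: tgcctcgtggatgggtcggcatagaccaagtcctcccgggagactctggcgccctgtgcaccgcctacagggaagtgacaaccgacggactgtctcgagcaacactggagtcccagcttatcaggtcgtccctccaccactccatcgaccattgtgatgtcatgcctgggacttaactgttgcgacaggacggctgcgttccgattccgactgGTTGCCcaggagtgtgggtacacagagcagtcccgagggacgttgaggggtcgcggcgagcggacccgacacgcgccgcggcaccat
Spag6l, chr16:16829314-16829613, minus strand: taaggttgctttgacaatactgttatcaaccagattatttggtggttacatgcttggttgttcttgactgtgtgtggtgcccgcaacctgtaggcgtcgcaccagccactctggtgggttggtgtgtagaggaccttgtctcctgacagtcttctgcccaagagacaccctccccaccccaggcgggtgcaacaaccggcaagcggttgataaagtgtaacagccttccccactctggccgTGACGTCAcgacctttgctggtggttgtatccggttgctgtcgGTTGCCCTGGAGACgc
Ift20, chr11:78536111-78536410, plus strand: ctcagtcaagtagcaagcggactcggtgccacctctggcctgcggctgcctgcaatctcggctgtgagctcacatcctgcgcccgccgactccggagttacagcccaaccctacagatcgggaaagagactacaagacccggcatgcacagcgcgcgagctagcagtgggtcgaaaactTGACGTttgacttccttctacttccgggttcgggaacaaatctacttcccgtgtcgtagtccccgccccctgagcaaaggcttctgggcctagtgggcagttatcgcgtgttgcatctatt
Spag16 held a full X-box, GTTGCCGTAGTAAC, beside a second part on the other strand. Full X-box letters occurred in 2.17% of all 32851 windows, and among the 10 windows of the 9 genes in that of Spag16 alone. The part GTTGCC was present in Spag16, Spag6 and Ift88, against 12.5% of all windows. The window of Spag6l held both a full X-box and TGACGTCA, the second of which occurred in 1.79% of windows and in no window of the 9 genes. Ift20 held TGACGT, as did 7.51% of windows. These are matches of letters only.

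None of the 9 genes was called different between genotypes. Of the 14 probe sets, 12 passed a filter on dim signals and were tested, and 0 of 12 passed limma's test at an adjusted p of 0.05, where 0.111% of all 27022 tested probe sets passed. With the replicate number as a block, which takes out differences shared by same-numbered mice, the count was again 0, against 2.33% of all. With replicates 1 and 2 as one set and replicates 3 and 4 as another, and the set as a block, it was 0, against 1.77% of all. At these background shares few or no calls among 12 would be usual, so the count sets the genes apart from nothing. At an unadjusted p under 0.05 the 3 fits gave 0, 2 and 1 of the 12 (7.41%, 14.3% and 14.5% of all), and the lowest adjusted p of any of them in any fit was 0.128. Mutant and wild-type values overlapped on all 12, where 6.07% of all tested probe sets showed no overlap. The median log2 difference, mutant minus wild type on the log2(intensity + 16) scale, was -0.04, beside 0.07 for all tested probe sets. Intensities of different probe sets are not compared here, since each probe set has its own response.

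**Figure D1:**
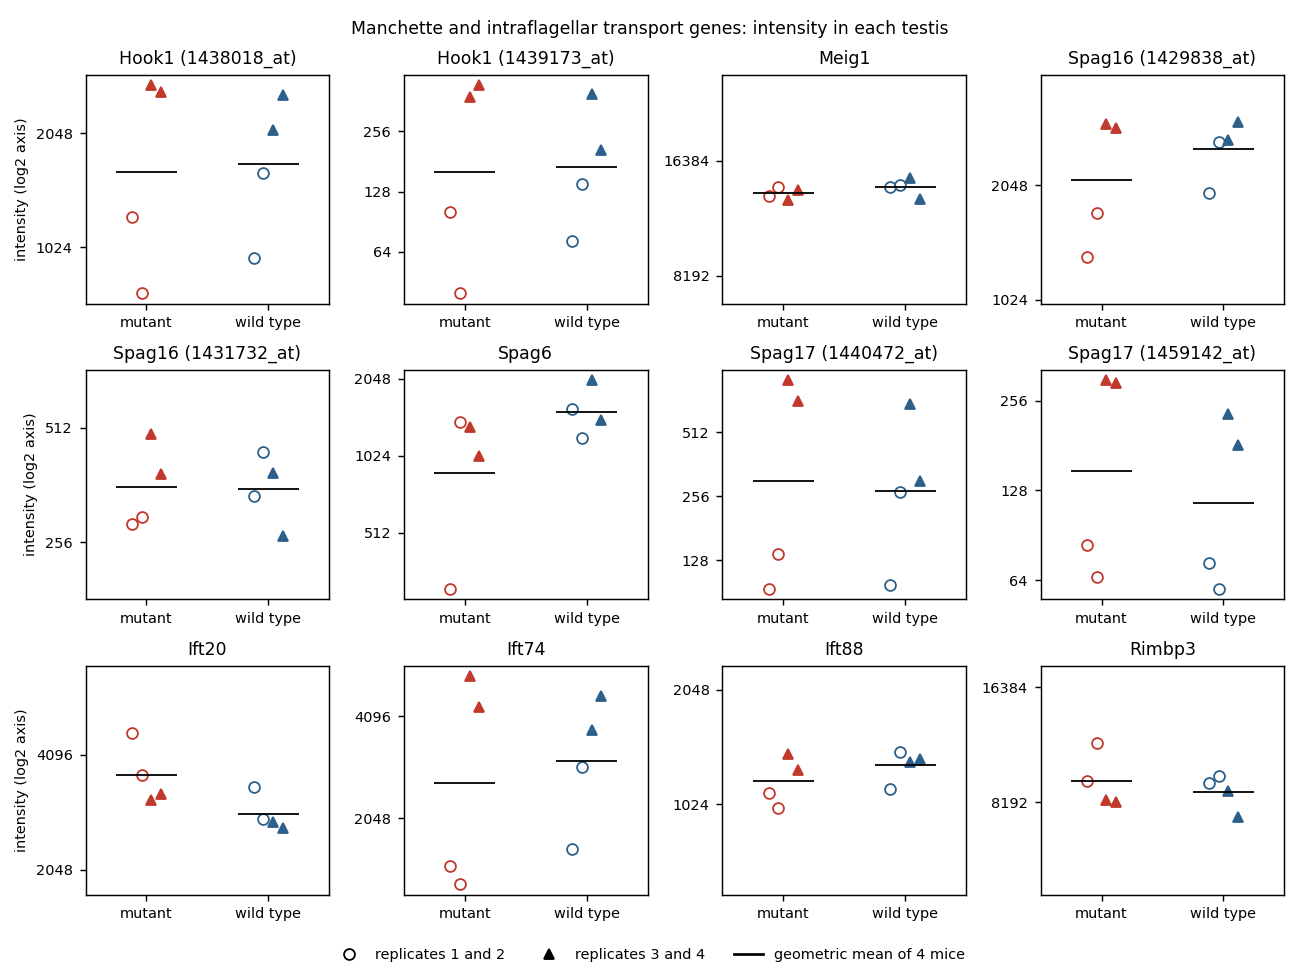
Intensity of each tested probe set in each mouse, on a log2 axis whose range differs between panels, mutants left and wild types right. Open circles are replicates 1 and 2, filled triangles replicates 3 and 4, and bars geometric means of 4 mice. Groups overlap in every panel, and in Hook1, Ift74 and Spag17 the triangles lie above the circles in both genotypes.

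Among the manchette genes, Meig1 was the steadiest. It read 13232, 13968, 12903 and 13773 in mutant replicates 1 to 4, against 14033, 14179, 14800 and 12981 in wild-type replicates 1 to 4. Values of both genotypes lay in one narrow band. The log2 difference was -0.05 (SE 0.08), with a 95% interval of -0.24 to 0.13 (limma, adjusted p = 0.999), so the interval holds no change as large as 2-fold either way. Rimbp3 read 9305, 11679, 8300 and 8217 in mutants, against 9210, 9584, 8731 and 7485 in wild types. The highest value was that of mutant replicate 2, and the other mutants lay within the wild-type range. Its log2 difference was 0.09, with an interval of -0.22 to 0.40.

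Hook1 differed far more among mice of 1 genotype than between genotypes. Its brighter probe set, 1438018_at, read 1233, 774.5, 2745 and 2634 in mutants, against 958.3, 1608, 2092 and 2586 in wild types. Within each genotype replicates 1 and 2 were low and replicates 3 and 4 high. The log2 difference between genotypes was -0.07 with a standard error of 0.44. Its interval of -1.07 to 0.94 was wide, and narrowed to -0.52 to 0.39 with the set as a block. The dimmer probe set, 1439173_at, read 101.6, 39.83, 377.7 and 436.2 in mutants, against 72.26, 139.6, 391.8 and 207.4 in wild types. It followed the same split, with a log2 difference of -0.02. Both probe sets changed sign between the sets of mice: among replicates 1 and 2 the brighter gave -0.34 and the dimmer -0.53, and among replicates 3 and 4 they gave 0.21 and 0.48.

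Of the 3 intraflagellar transport genes among the 9, Ift20 had the lowest adjusted p. IFT20 also has a place at the Golgi complex, from which cargo for cilia sets out. It read 4689, 3638, 3118 and 3228 in mutants, against 3364, 2773, 2737 and 2636 in wild types. Each mutant lay above the wild type of its own number, as on 15.1% of all tested probe sets, yet the groups overlapped because mutant replicates 3 and 4 lay under wild-type replicate 1. Means were 3668 ± 716 in mutants and 2877 ± 329 in wild types (SD, n = 4 each), a ratio of 1.26 by the log2 difference of 0.34. Its 95% interval was -0.02 to 0.69 without a block (limma, adjusted p = 0.713) and 0.12 to 0.55 with the replicate block (adjusted p = 0.128). The difference was 0.43 among replicates 1 and 2 and 0.24 among replicates 3 and 4, and without mutant replicate 1, the highest mouse, it was 0.21. That last fit had no block and left the replicate sets uneven between genotypes.

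Ift74 and Ift88 gave values below 0 that were not called. Ift74, which with IFT81 binds tubulin in complex B, read 1476, 1307, 5395 and 4371 in mutants, against 1659, 2912, 3736 and 4703 in wild types. As for Hook1, replicates 3 and 4 were the high mice in both genotypes. Its log2 difference was -0.22 with an interval of -1.36 to 0.92, made of -0.66 within replicates 1 and 2 and 0.21 within replicates 3 and 4. Ift88, whose product is a core part of complex B and is needed for sperm tails, read 1098, 998.3, 1388 and 1261 in mutants, against 1126, 1405, 1321 and 1344 in wild types. Its values stayed close together, and the log2 difference was -0.14 with an interval of -0.47 to 0.20.

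**Figure D2:**
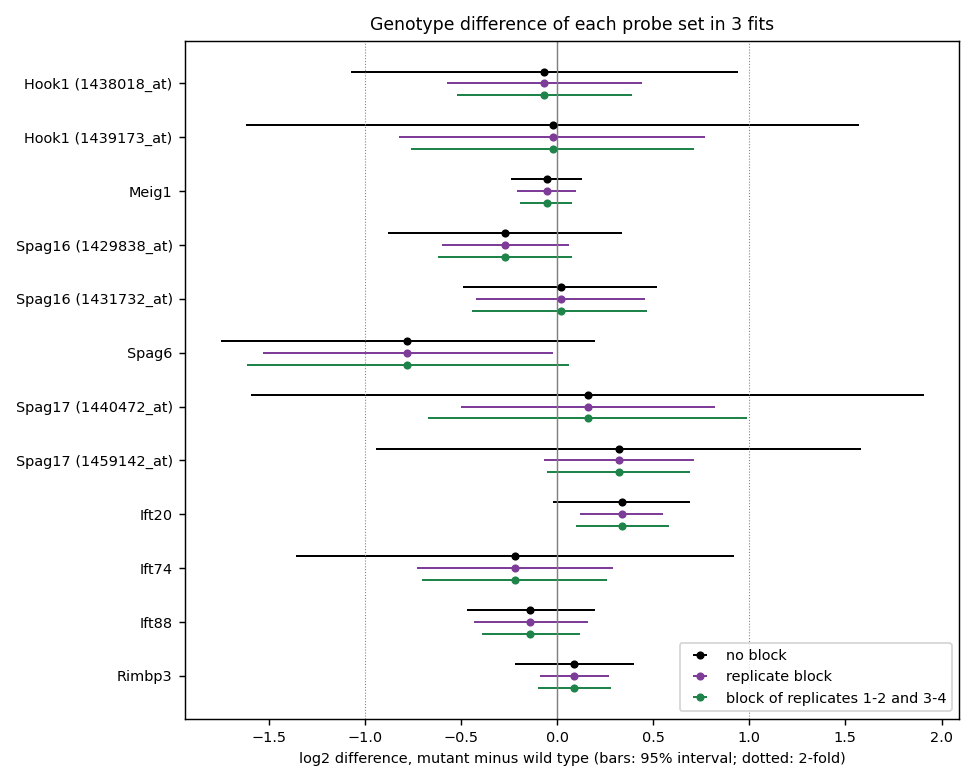
Log2 difference, mutant minus wild type, of each tested probe set with its 95% interval from limma without a block (black), with the replicate block (purple) and with the set of replicates as a block (green). Dotted lines mark 2-fold. Ift20 lies highest, at 0.34, and Spag6 lowest, at -0.78, with the interval of Spag6 reaching past 2-fold in each fit.

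The central apparatus genes held the largest difference of the 12, that of Spag6. Its probe set read 309.9, 1385, 1330 and 1023 in mutants, against 1552, 1197, 2013 and 1407 in wild types. Mutant replicate 1 stood far below the rest, and mutant replicates 2 and 3 lay in the wild-type range. That mouse was also the lowest of the 8 on each of the 9 late spermatid markers given below. The log2 difference of Spag6 was -0.78 with an SE of 0.43 (limma, adjusted p = 0.859, and 0.337 with the replicate block). Without mutant replicate 1, and with no block, it was -0.29. Mouse has a close relative, Spag6l, which also carries the name Spag6 as a synonym and which the array annotation keeps apart. The Spag6l probe set read 6826, 6997, 5695 and 6145 in mutants, against 6223, 6821, 6508 and 5113 in wild types. Mutant replicate 1 was not low there, and the log2 difference was 0.06 with an interval of -0.22 to 0.34. Whether either probe set also detects the other transcript is not given in the sources used here.

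Spag16 had 4 probe sets, of which 2 were tested. The brighter, 1429838_at, read 1330, 1735, 2971 and 2886 in mutants, against 1952, 2656, 2694 and 3006 in wild types. Mutant replicates 1 and 2 were the lowest mice, while mutant replicates 3 and 4 lay in the wild-type range. Its log2 difference of -0.27 came to -0.58 in the set of replicates 1 and 2 and to 0.04 in the other set. The probe set 1431732_at gave 367 ± 96.2 in mutants and 360 ± 74.8 in wild types (SD, n = 4 each), a log2 difference of 0.02. The probe sets under the filter, 1431958_at and 1441708_at, ranged over 2.026 to 52.81 and 19.57 to 100.1 in mutants, against 14.1 to 40.08 and 19.28 to 66.66 in wild types, and were not tested.

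Spag17, the gene of a large protein of the central apparatus projections, was low in replicates 1 and 2 of both genotypes. The probe set 1440472_at read 93.94, 137.3, 900.1 and 722.3 in mutants, against 98.13, 267.2, 695.4 and 302.3 in wild types. The probe set 1459142_at read 83.69, 65.63, 299.2 and 293 in mutants, against 72.89, 59.84, 230.2 and 182 in wild types. On both, mutant replicates 3 and 4 were the highest mice. Log2 differences between genotypes were 0.16 and 0.32, with intervals of -1.59 to 1.91 and -0.94 to 1.58. Among replicates 3 and 4 they were 0.79 and 0.50 and among replicates 1 and 2 -0.47 and 0.14, none of them called.

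How tightly the data bound a change thus differed between the genes. Without a block, the 95% interval lay inside 2-fold on both sides for 6 of the 12 probe sets, those of Meig1, Rimbp3, Ift20, Ift88 and Spag16. With either block it did so for 11, the exception being Spag6. A fold change on the log2(intensity + 16) scale understates that of dim probe sets such as those of Spag17.

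The larger pattern in these genes ran along the replicate numbers. Of the 12 tested probe sets 5, both of Hook1, both of Spag17 and that of Ift74, were at least 2-fold higher in replicates 3 and 4 than in replicates 1 and 2 over both genotypes, as were 7.93% of all tested probe sets. By the brightest probe set of each gene it was 3 of the 9 genes, beside 1017 of all 13787 genes. No test is given, since the labels name no batch and the split was first seen in the data. The ratios were 4.09 and 3.05 for Spag17, 3.66 and 2.25 for Hook1 and 2.57 for Ift74. On 6 probe sets, these 5 and the brighter of Spag16, each mouse of replicates 3 and 4 lay above each mouse of replicates 1 and 2, as on 19.5% of all tested probe sets. On 1, that of Rimbp3, each lay below, as on 16.1% of all. Ift20 and Rimbp3 went the other way, at 0.823 and 0.826 of the level in replicates 1 and 2, and Meig1 barely differed, at 0.982. In mutants the step was larger than in wild types for each of these 6 (log2 2.66 against 1.40 for Spag17 on 1440472_at, 1.44 against 0.90 for Hook1 on 1438018_at, 1.79 against 0.93 for Ift74), with 2 mice on each side and no test. It was larger in mutants on 74.3% of all 5256 tested probe sets with that order too.

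**Figure D3:**
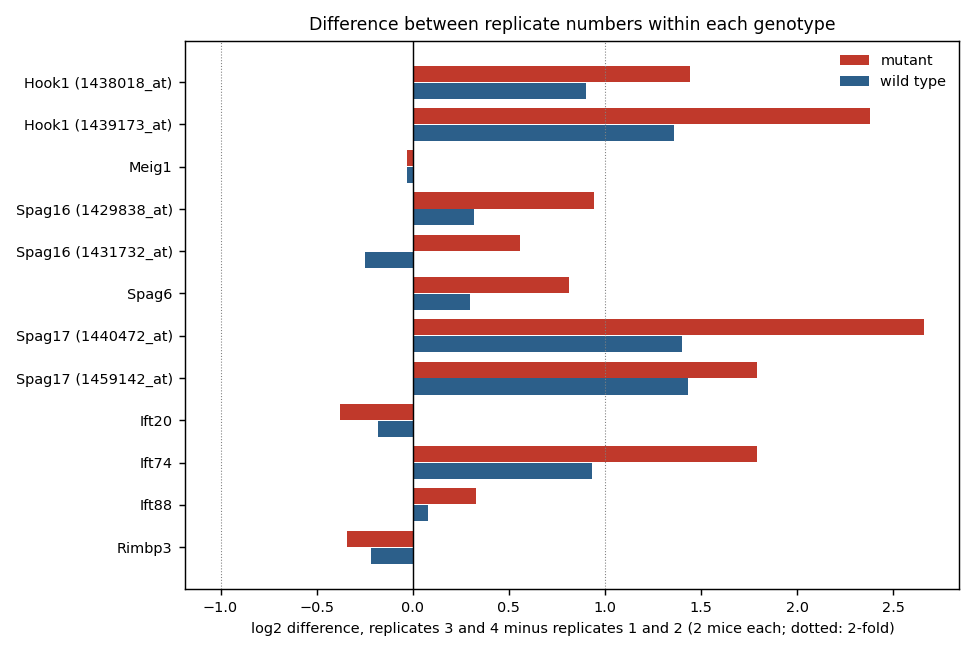
Mean log2 value of replicates 3 and 4 minus that of replicates 1 and 2, for mutants (red) and wild types (blue), 2 mice on each side. Both probe sets of Hook1 and Spag17 and that of Ift74 lie at or above 0.90 in both genotypes, while Meig1 lies at -0.03 in both.

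Other measures moved with the same split. Of 16 epididymis markers 11 were tested, and 10 of the 11 were at least 2-fold higher in replicates 3 and 4. Their median log2 difference, replicates 3 and 4 minus replicates 1 and 2, was 6.46. The summed intensity was 73386 to 86295 in replicates 3 and 4 and 11097 to 17402 in replicates 1 and 2. Most of the sum in replicates 1 and 2 was Cst12, which read 10780 to 16726 there and did not follow the split (ratio 0.984). Lcn5, Lcn9, Cst11, Ros1 and Spint4 of that list read under 16 on at least 1 array. Multiciliated cells, which line the efferent ducts and use these genes too, had 6 of 9 markers tested. Of these, 3 were higher and 3 lower in replicates 3 and 4, with a median log2 difference of 0.16 and 0 of 6 at least 2-fold higher. Their sum was 4655 to 6186 in replicates 3 and 4 and 5202 to 6601 in replicates 1 and 2. It leaned on the bright probe set of Cdhr4, at 2331 to 2875 and 3613 to 4200. Of 9 spermatocyte markers 4 were higher in replicates 3 and 4 (Sycp1 3.92-fold, Hormad1 1.64-fold, Meiob 1.52-fold and Sycp3 1.47-fold) and 5 lower, with a median log2 difference of -0.12. Their sums, carried by bright probe sets such as that of Ldhc, were 62487 to 66606 in replicates 3 and 4 and 68762 to 73896 in replicates 1 and 2. All 8 tested Sertoli cell markers and all 4 tested Leydig cell markers were lower in replicates 3 and 4. Their median log2 differences were -0.26 and -0.56. The 3′ over 5′ ratio of the actin control was 1.82 to 2.30 in replicates 3 and 4 and 1.41 to 1.69 in replicates 1 and 2. For the Gapdh control it was 0.629 to 0.762 and 0.548 to 0.588. The part of tissue from outside the testis or of RNA quality in the split of Hook1, Ift74 and Spag17 was not tested.

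Between genotypes, markers of late spermatids differed while the 9 genes did not pass the test. The 9 late markers, protamines, transition proteins and tail proteins among them, summed to 4434 to 29248 in mutants, against 79354 to 138752 in wild types. Without a block 1 of the 9 fell, with the replicate block 8 and with the set as a block 6. Of all genes 0.174%, 3.11% and 2.1% fell in these fits. Their median log2 difference was -2.49, beside -0.07 for the 9 genes read by their brightest probe sets. Markers of early spermatids had a median of -0.89, and 1 of 9, Pgk2, fell with the replicate block and with the set as a block. The median of 9 spermatocyte markers was -0.03, with none called. Sertoli and Leydig cell markers, 8 and 4 tested, had medians of 0.16 and 0.14, with none called. Fewer cells of a type and less RNA per cell cannot be told apart in whole testis.

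The rest of the pathway was read from 6 lists of other genes: complex B, complex A, the motors, the BBSome, the manchette and the central apparatus. Of 70 listed genes 62 were tested, 57 of them within 0.5 log2 units of 0. None passed without a block (0.174% of all genes fell), 4 fell with the replicate block (3.11%) and none with the set as a block (2.1%). No gene rose. In complex B, with 15 genes and a median of -0.03, Ift172, the largest subunit, had the lowest p, with 3335, 3947, 3362 and 3317 in mutants, against 4420, 5088, 4698 and 3935 in wild types. Its log2 difference was -0.37 (limma, adjusted p = 0.0703 with the replicate block). Ttc30a2 of the same complex stood at 0.23, without a call. Complex A, with 6 genes and a median of -0.05, ran from -0.13 for Ift140 to 0.07, with Wdr35 at -0.12.

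Motors held 9 tested genes with a median of -0.08 and none called by its brightest probe set. Kif17, a kinesin, had a log2 difference of -0.62 there (604 ± 207 in mutants, 913 ± 180 in wild types, SD, n = 4 each). Its other probe sets gave -1.43 and -1.0, and the first of these passed with the replicate block (limma, adjusted p = 0.0492), and neither without a block (0.328) nor with the set as a block (0.15). Kif3a, a subunit of the kinesin of outward transport, had log2 differences of -0.28, -0.35, -0.04 and 0.19 over its probe sets. Among 8 BBSome genes, with a median of 0.02, Bbs5 alone fell with the replicate block, as did 3.11% of all genes. Bbs5 read 761.1, 1185, 1340 and 1532 in mutants, against 1759, 2368, 2485 and 1780 in wild types. The groups did not overlap, as on 6.07% of all tested probe sets. Its log2 difference was -0.82 (limma, adjusted p = 0.236 without a block, 0.0409 with the replicate block, 0.0655 with the set as a block).

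Of 17 tested manchette genes, 3 fell with the replicate block, as did 3.11% of all genes. Spag4 and Sun3 encode SUN domain proteins that tie the nuclear envelope to the cytoskeleton, and Clip1 a protein of growing microtubule ends. Spag4 read 384.2, 1380, 906.4 and 1192 in mutants, against 2573, 3430, 2646 and 1598 in wild types. Sun3 read 221.3, 462.5, 521.6 and 646.2 in mutants, against 765.8, 1091, 1162 and 886.5 in wild types. In both genes each mutant lay below each wild type, and 6.07% of all tested probe sets showed no overlap in either direction. Log2 differences were -1.49 for Spag4, -1.13 for Sun3 and -1.02 for Clip1 (limma, adjusted p = 0.0427, 0.0263 and 0.0443 with the replicate block). With the set as a block they were not called (0.0822, 0.0522 and 0.083). Without mutant replicate 1 and with that block they were, at -1.02, -0.86 and -0.72. In that fit 689 of all 27022 tested probe sets passed. The other tested probe sets of Clip1 gave -0.20 and 0.20. The median of the list was -0.12. Of 7 tested central apparatus genes, with a median of -0.06, none was called, Cfap221 having a log2 difference of -0.36 and Cfap65 one of 0.20.

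**Figure D4:**
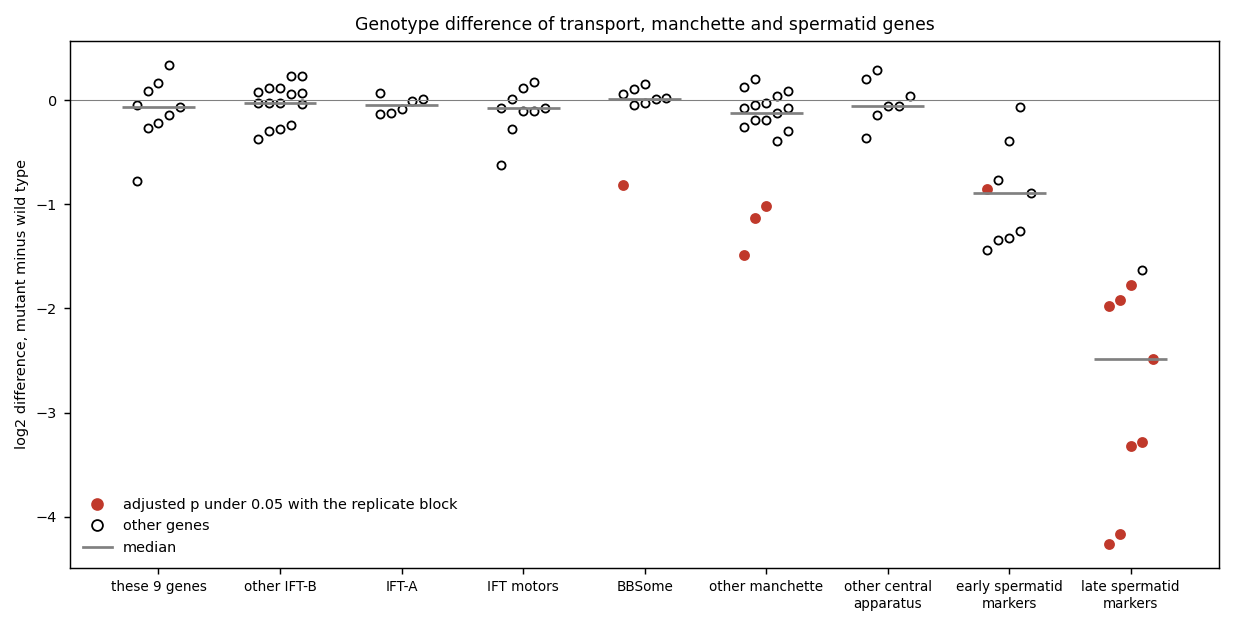
Log2 difference, mutant minus wild type, of each tested gene by its brightest probe set, for the 9 genes, 6 lists of related genes and 2 lists of spermatid markers. Filled red points passed an adjusted p of 0.05 with the replicate block, and grey bars are medians. None of the red points in the 6 lists of related genes passed with the set as a block. The late spermatid markers lie between -4.26 and -1.63, while the 9 genes lie between -0.78 and 0.34.

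For each of the 9 genes, the gene with the most similar profile was found as the smallest root mean square difference, over the 8 arrays, between log2 values centred on their means. These were Naa15 for Hook1 (0.0305 log2 units), Fbf1 for Rimbp3 (0.0369), Sqle for Meig1 (0.0426) and Ypel3 for Ift88 (0.0551). They were Mybbp1a for Ift20 (0.0617), Ttc6 for Ift74 (0.0735), Lrrc34 for Spag16 (0.0777), the clone-named 4930483K19Rik for Spag6 (0.136) and Thoc2l for Spag17 (0.312). The distance is small for any flat gene: the members' own SD over the arrays was 0.0641 log2 units for Meig1, 0.167 for Ift88, 0.179 for Rimbp3 and 0.253 for Ift20, beside 0.656 for Hook1, and was highest for Spag17, at 1.16. Arrays share the split by replicate number, which weighs on such a measure. Brwd1 itself was not called on any of its 4 tested probe sets, with log2 differences of 0.31, -0.04, -0.28 and -0.20.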

How the data were processed

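RNA of whole testis was measured on Affymetrix arrays, 1 per mouse, 4 mice per genotype. The authors deposited intensity values on a linear scale made with GCOS, per the submitters' processing notes, and no version of it is stated there. With the top and bottom 2% of values dropped, every array averages 500, and their medians run from 90.7 to 124. The table gives no detection calls, and precision is limited by the count of 8 arrays.

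Symbols came from the platform annotation, updated through Entrez identifiers. Of 45037 probe sets outside the 64 controls, 34945 had 1 symbol, 932 several and 9160 none. Values were taken as log2(intensity + 16). The 27022 probe sets whose mean log2 value lay above the 40th percentile were tested with limma 3.58.1 (R 4.3.3; lmFit, eBayes with trend, two-sided) and adjusted over all of them by Benjamini-Hochberg. A listed gene was read by its brightest probe set (13787 genes). The fit was tested on simulated data.

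Both genotypes share replicate numbers 1 to 4. Deviations of same-numbered mice correlated (r from 0.518 to 0.618 in 4 pairs). So did those of a mutant and a wild type of different number within the same set (r from 0.235 to 0.652). Only 2 of 8 mice were closest to their own number. The values thus show the 2 sets and no pairing by number beyond them. The replicate block is printed beside results it changes, with the set as a block as the other choice. Motifs were searched as letters. The text names all probe sets of the 9 genes, listed genes past the threshold in any of the 3 fits or else the 2 of lowest p, and the most similar gene. Genes, lists and tests were chosen with earlier results of these data known.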

Additional observations from a re-analysis of the deposited data

How the results depend on the processing

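Under 22 alternatives (blocks, sets of replicates, normalization, pseudocount, filter, variance model, 1 probe set per gene, each mouse left out) none of the tested probe sets of the 9 genes passed. All 12 were tested in each except that the stricter filter left out Hook1 (1439173_at) and Spag17 (1459142_at), and 1 probe set per gene left out these and Spag16 (1431732_at). The count over all probe sets was 30, and 630 with the replicate block, 477 with the set of replicates as a block, 689 when mutant replicate 1 was also dropped from that fit, 0 from replicates 1 and 2 alone and 55 with a pseudocount of 64. Dropping single mice gave 0 to 118, the highest being without mutant replicate 1. The replicate block called 1 BBSome gene and 3 manchette genes where none passed without it, changed no call in the other 4 lists by the brightest probe set of each gene, and 3 manchette genes passed with the set as a block and without mutant replicate 1. Some signs turned, none with a call. Within replicates 3 and 4 the log2 difference was 0.21 and 0.48 for the probe sets of Hook1, 0.04 for Spag16 (1429838_at) and 0.21 for Ift74. Within replicates 1 and 2 it was -0.39 for Spag16 (1431732_at), -0.47 for Spag17 (1440472_at) and 0.00 for Ift140. A pseudocount of 64 gave 0.04 for Hook1 (1439173_at), and median centring -0.02 for Spag16 (1431732_at). Leaving out single mice gave -0.34 to 0.28 and -0.45 to 0.55 for Hook1, -0.13 to 0.12 for Spag16 (1431732_at), -0.34 to 0.68 for Spag17 (1440472_at), -0.57 to 0.11 for Ift74, -0.02 to 0.15 for Rimbp3 and -0.21 to 0.02 for Wdr35. These fits leave the replicate sets uneven between genotypes. The cause of the changes was not tested.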

Other observations

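Among the 62 tested related genes outside the 9, those at least 2-fold higher in replicates 3 and 4 were Ift81, Dync2h1 and Spef2, singled out after their values were seen. That is 1 gene each in the lists of complex B, the motors and the manchette, and 0 in each other list. Of all 13787 genes 1017 were so, which is no smaller a share, so these genes do not set the lists apart. Ift81, the partner of Ift74 in complex B, read 820.5, 690.7, 2062 and 1772 in mutant replicates 1 to 4, against 834.1, 1242, 1762 and 2228 in wild-type replicates 1 to 4. The ratio of replicates 3 and 4 over replicates 1 and 2 was 2.2, beside 2.57 for Ift74. Dync2h1, the heavy chain of the dynein that runs intraflagellar transport back to the cell body, read 630.5, 717.8, 3460 and 3260 in mutants, against 693, 1166, 2673 and 2961 in wild types, a ratio of 3.89. Spef2, an axoneme gene that also acts at the manchette, read 229.6, 173.2, 663.2 and 467.5 in mutants, against 184, 471.6, 530.3 and 580.7 in wild types, a ratio of 2.2. Their log2 differences between genotypes were -0.24, -0.08 and -0.26, none of them called by limma.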
